A study of Mus musculus with 8 samples.

Results

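The genes described here are 31 genes of the urea cycle and of amino acid catabolism, chosen by name among the 31053 genes of a single-cell count matrix of mouse liver. They cover the urea cycle (Cps1, Otc, Ass1, Asl, Arg1), the methionine cycle (Mat1a, Gnmt, Bhmt, Ahcy), histidine breakdown (Hal, Uroc1, Ftcd) and serine, glycine and glyoxylate handling (Sds, Sdsl, Agxt, Gldc). Tyrosine breakdown (Tat, Hpd, Hgd, Fah), tryptophan and lysine breakdown (Tdo2, Aass) and glutamine, proline and ornithine metabolism (Glul, Gls2, Oat, Prodh) follow. The remaining members are the transaminases Got1 and Gpt, the creatine synthesis enzyme Gatm, and Pck1 and G6pc of gluconeogenesis. Transcripts were counted as unique molecular identifiers (UMIs) with the 10x Genomics platform in 8 libraries, 1 per mouse, from 4 mice on a control chow diet and 4 on an HFHC diet. The design text expands HFHC as high fat, high cholesterol, whereas the sample titles say calorie. All mice were male C57BL/6, entered at 6 to 8 weeks of age per the labels, and received their diet for 20 to 32 weeks. Cells had passed dead cell removal, staining for CD45, CD31, CD146 and PDPN, and a sort meant to enrich endothelial cells, so hepatocytes were not the cells sought.

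Hepatocytes remove ammonia by the urea cycle, which begins in mitochondria with Cps1 and Otc and ends in the cytosol with Ass1, Asl and Arg1. Along the liver lobule this machinery is zoned. Hepatocytes near the portal tract are rich in urea cycle, histidine, serine and glutaminase (Gls2) enzymes. The last hepatocytes before the central vein instead make glutamine synthetase (Glul), which captures the ammonia that escaped the urea cycle, together with ornithine aminotransferase (Oat).

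Several libraries held the same barcodes, and of each such barcode only the copy with the most UMIs was used. Of 3416 barcodes, 3192 remained. Clusters with at least 3 hepatocyte markers, and more of these than of any other class, were called hepatocyte-like. The class held 562 barcodes and 975500 UMIs in control 2, and 626 barcodes and 1533896 UMIs in HFHC 3. Control 1 had 1 such barcode and control 4 had 4, and none was found in control 3, HFHC 1, HFHC 2 or HFHC 4. Hepatocyte transcripts could thus be compared only between 1 mouse of each diet. Different clusters held the class in these libraries: 614 of the 626 barcodes of HFHC 3 lay in a cluster led by Saa2, while most of those of control 2 lay in 4 others. All 16 hepatocyte markers were detected in both libraries, at 3.36% of UMIs in control 2 and 2.03% in HFHC 3. Malat1, a nuclear RNA, stood at 244 and 101 counts per 1000000 UMIs (CPM) in these barcodes, against 17891 to 38122 CPM in the other barcodes of the 8 libraries. The median mitochondrial share was 4.75% in control 2 and 0.0347% in HFHC 3, and the median depth 1210 and 1970 UMIs per barcode. The part of these library differences in the results was not tested, and diet and library cannot be told apart. Control 2 and HFHC 3 also had 35 barcodes in common before copies were removed.

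The members took 3.17% of the hepatocyte-like UMIs in control 2 and 3.57% in HFHC 3, with 31 and 30 of the 31 detected. Elsewhere they made up between 0.0416% of UMIs, in HFHC 2, and 0.474%, in control 2. The sequences shown are the RefSeq promoters (GRCm38.p6, 250 bases before to 50 after the start) of Glul and Oat, the 2 members at least 2-fold lower in HFHC 3, and of Gatm, the member nearly absent from hepatocyte-like barcodes. Capitals mark CCAAT, or ATTGG where it lies on the opposite strand. They stand at chr1:153899679-153899978 on the plus strand, chr7:132576349-132576648 on the minus strand and chr2:122611228-122611527 on the minus strand.
Glul: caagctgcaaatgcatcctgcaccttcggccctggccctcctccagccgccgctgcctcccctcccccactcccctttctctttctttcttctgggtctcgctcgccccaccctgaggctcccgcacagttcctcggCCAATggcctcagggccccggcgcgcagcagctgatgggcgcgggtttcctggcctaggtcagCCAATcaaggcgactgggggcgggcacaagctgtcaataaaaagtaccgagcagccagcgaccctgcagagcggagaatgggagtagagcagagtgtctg
Oat: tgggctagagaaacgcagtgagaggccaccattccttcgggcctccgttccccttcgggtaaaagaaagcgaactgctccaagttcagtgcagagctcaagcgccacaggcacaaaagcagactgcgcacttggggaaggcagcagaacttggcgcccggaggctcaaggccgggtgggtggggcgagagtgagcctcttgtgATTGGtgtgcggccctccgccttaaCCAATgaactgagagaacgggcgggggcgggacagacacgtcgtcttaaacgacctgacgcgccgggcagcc
Gatm: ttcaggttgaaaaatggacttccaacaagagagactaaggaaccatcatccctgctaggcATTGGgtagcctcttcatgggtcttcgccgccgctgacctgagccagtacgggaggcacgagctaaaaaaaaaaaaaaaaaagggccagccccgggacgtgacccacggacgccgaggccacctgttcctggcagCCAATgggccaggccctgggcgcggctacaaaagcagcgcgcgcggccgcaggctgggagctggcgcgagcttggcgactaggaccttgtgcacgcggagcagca
Each of these windows holds CCAAT 2 times, counting both strands. Of the 23 members with a promoter in the table, 15 (65.2%) held it, against 37.9% of 27025 promoters. CTTTGA (or TCAAAG), the core recognised by the Wnt pathway factors TCF and LEF, was found in 5 of the 23 and in 16.2% of all, and in none of the 3 windows printed. CCAAT was among 5 motifs searched and is the only one marked. Of the others, TGACG was found in 17.4% of the 23 and 21.0% of all, and TATAAA in 21.7% and 14.2%. TTGCGCAA was found in 0% and 0.185%. These matches describe letters and no binding was measured.

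In hepatocyte-like barcodes, with all UMIs counted, the diet libraries differed most in the perivenous genes Glul and Oat, which were lower in HFHC 3, and in Bhmt, which was higher. With each barcode thinned to 500 UMIs this order changed, and Cps1 differed most. Of the 31 members, 30 had at least 40 UMIs over both libraries. The ratio of HFHC 3 to control 2 had an exact 95% counting interval above 1 for 13 members, below 1 for 8 and including 1 for 9. Among all 4415 genes with that many UMIs, 24.0% lay above 1 and 8.36% below. None of the 30 was at least 2-fold higher, against 5.25% of all genes, and 2 were at least 2-fold lower, against 2.74%. The median log2 ratio was 0.12 for the members and 0.17 for all these genes. These intervals cover counting error only. With 1 mouse per diet there is no replicate check and no test.

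**Figure D1:**
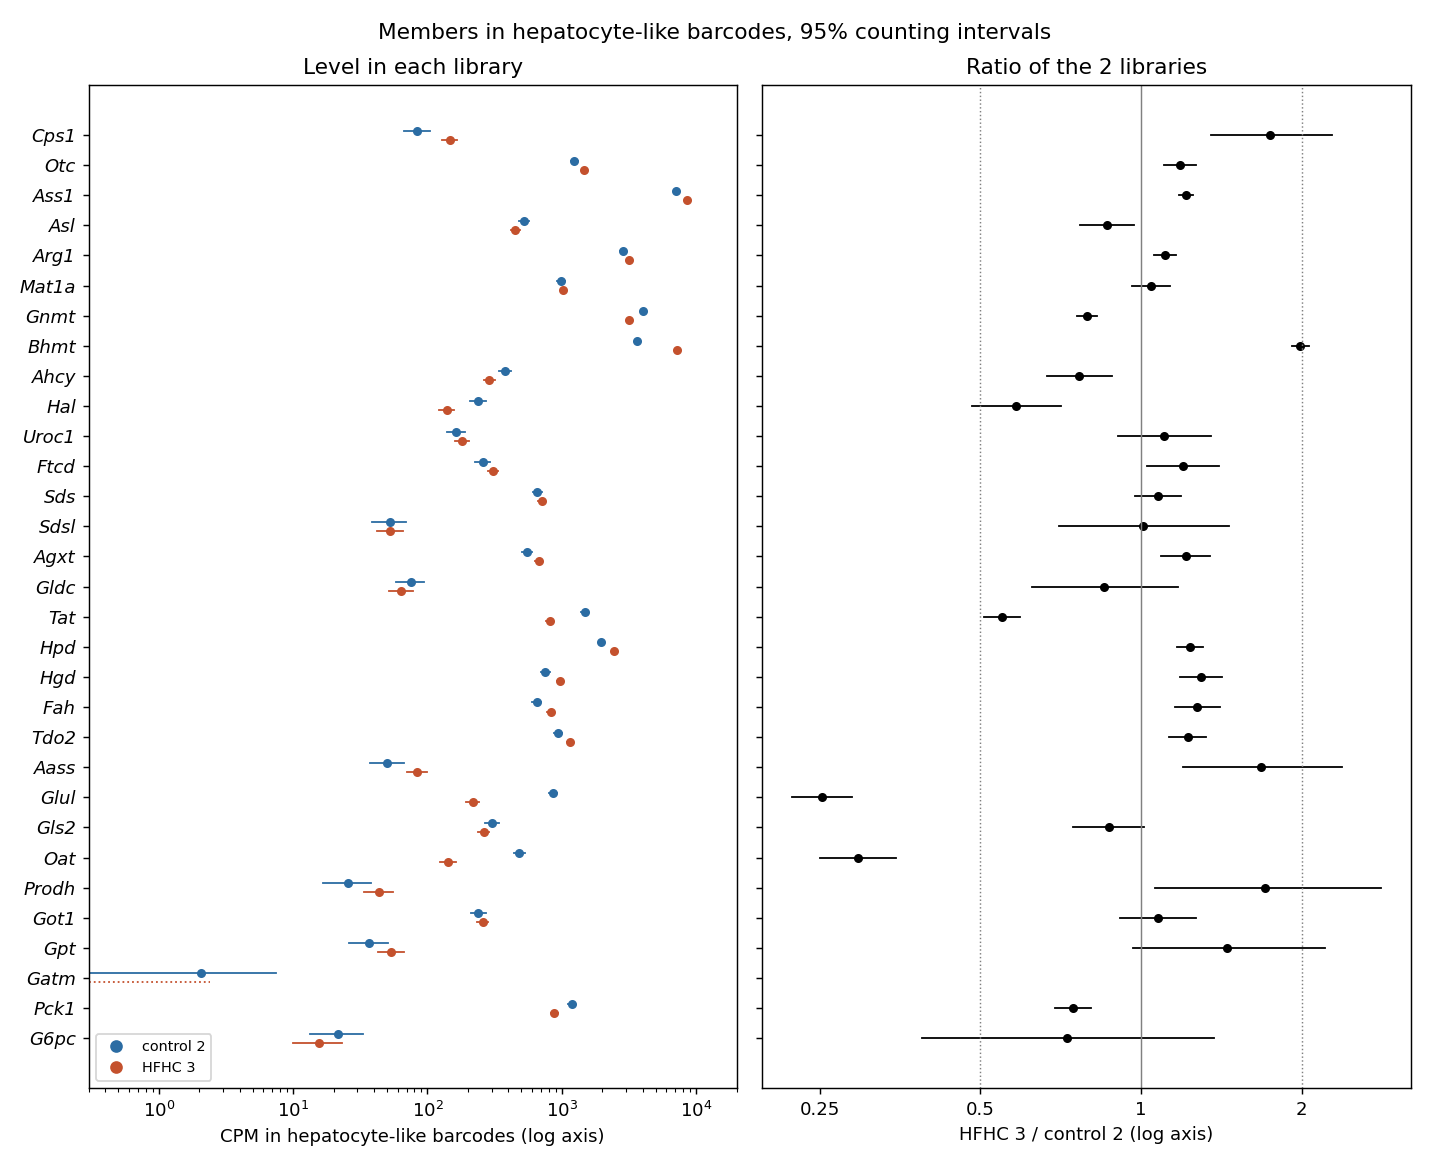
Level of each member in hepatocyte-like barcodes (left, CPM, log axis; blue control 2, orange HFHC 3) and the ratio HFHC 3 / control 2 (right, log axis; solid line at 1, dotted lines at 0.5 and 2), with exact 95% counting intervals; a dotted bar without a point is a count of 0. Glul and Oat lie left of 0.5, Bhmt lies just left of 2, and Gatm had too few UMIs for a ratio.

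The urea cycle enzymes differed by less than 2-fold between the libraries, and 4 of the 5 were higher in HFHC 3. Cps1, which fixes ammonia in mitochondria, had 84.1 CPM in control 2 and 147 CPM in HFHC 3, a ratio of 1.75 (1.35 to 2.28), or 4.19 (2.22 to 8.59) on 68 UMIs after thinning. Otc, which makes citrulline, had 1241 and 1468 CPM, a ratio of 1.18 (1.10 to 1.27). Ass1, which joins citrulline to aspartate, had 7032 and 8533 CPM, a ratio of 1.21 (1.18 to 1.25). The exception was Asl. Asl, which releases arginine, had 523 and 450 CPM, a ratio of 0.862 (0.767 to 0.968). Arg1, which splits arginine into urea and ornithine, had 2831 and 3140 CPM, a ratio of 1.11 (1.06 to 1.16). Of the 9 further urea cycle and ammonia genes listed, 6 had enough UMIs, and 2 had intervals above 1 and none below. The mitochondrial ornithine carrier Slc25a15 was one of them, with 152 CPM in control 2 and 253 CPM in HFHC 3.

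The methionine cycle genes differed in direction. Bhmt, which remethylates homocysteine with betaine, had 3609 CPM in control 2 and 7179 CPM in HFHC 3, a ratio of 1.99 (1.91 to 2.07). Gnmt, which uses up S-adenosylmethionine on glycine, had 4020 and 3180 CPM, a ratio of 0.791 (0.758 to 0.825). Ahcy, which hydrolyses S-adenosylhomocysteine, had a ratio of 0.765 (0.665 to 0.881), and the interval of Mat1a, which makes S-adenosylmethionine, included 1. Bhmt was thus the only one of the 4 that was higher beyond counting error. Among 13 further genes of methionine and sulfur amino acids, 11 had enough UMIs, with 3 intervals above 1 and 4 below. Csad, a taurine synthesis enzyme, was at least 2-fold lower, with 814 CPM in control 2 and 241 CPM in HFHC 3.

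Tat, the hormone-responsive first step of tyrosine breakdown, stood apart from the later steps. It had 1476 CPM in control 2 and 810 CPM in HFHC 3, a ratio of 0.549 (0.508 to 0.593). Hpd, Hgd and Fah, which act after it, had ratios of 1.24, 1.30 and 1.27, each with an interval above 1. Tdo2, the first enzyme of tryptophan breakdown, and Aass, that of lysine, had ratios of 1.22 (1.13 to 1.32) and 1.67 (1.20 to 2.38). The latter was 2.77 (1.37 to 6.07) after thinning. The 13 further genes of aromatic and lysine breakdown had 3 intervals above 1, 2 below and 8 including 1.

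Histidine, serine and glycine genes differed in direction. Hal, histidine ammonia-lyase, had 238 CPM in control 2 and 139 CPM in HFHC 3, a ratio of 0.584 (0.482 to 0.706). Ftcd, a folate-linked enzyme of that pathway, had a ratio of 1.20 (1.02 to 1.40). Agxt, which detoxifies glyoxylate, had a ratio of 1.21 (1.09 to 1.35). The intervals of Uroc1, Sds, Sdsl and Gldc included 1. Of 12 further glycine, serine and proline genes, 11 had enough UMIs, with 5 intervals above 1 and 1 below. Pck1, a control enzyme of gluconeogenesis, had 1183 and 882 CPM, a ratio of 0.746 (0.689 to 0.807), and Prodh, proline dehydrogenase, a ratio of 1.70 (1.06 to 2.82), or 3.05 (1.08 to 10.6) after thinning. The intervals of Got1, Gpt, G6pc and Gls2 included 1.

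Other lists gave the same mixed picture. Branched chain breakdown genes had 7 intervals above 1, 1 below and 8 including 1 among 16 of 17 with enough UMIs. The 5 further histidine and transamination genes had 3 above and 1 below. Of 12 amino acid transporters only Slc38a4 had enough UMIs, and its interval included 1. Of 14 hormonal regulators and gluconeogenesis partners, 9 had enough UMIs, with 4 above and 1 below. The hepatocyte markers, which are no members, had 2 above and 9 below among 16, and their median log2 ratio was -0.22. When member counts were divided by marker UMIs instead of all UMIs, every member ratio was 1.65 times higher, so Asl, Gnmt, Ahcy and Pck1 turned from lower to higher in HFHC 3. Glul stayed at 0.417 and Oat at 0.488 on that scale.

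Glul and Oat had the lowest ratios of HFHC 3 to control 2 among the members. Glul had 863 CPM in control 2 and 218 CPM in HFHC 3, a ratio of 0.252 (0.222 to 0.287), and Oat had 484 and 143 CPM, a ratio of 0.295 (0.250 to 0.347). In control 2, 84 of 562 hepatocyte-like barcodes (14.9%, Wilson 95% interval 12.2 to 18.1%) had a Glul UMI, and they held 842 UMIs, or 10.0 each. In HFHC 3, 148 of 626 (23.6%, 20.5 to 27.1%) did, and they held 334 UMIs, or 2.26 each. Glul was therefore seen in more barcodes of HFHC 3 but with fewer UMIs per carrying barcode on average. These means rest on few barcodes, and the fullest held 179 Glul UMIs in control 2 and 36 in HFHC 3. The top 10% of hepatocyte-like barcodes held 96.7% of the Glul UMIs in control 2 and 74.6% in HFHC 3. Counting intervals do not cover this unevenness. Thinned to 500 UMIs per barcode, with no barcode left out, the shares were 46 of 562 (8.19%) and 51 of 626 (8.15%), with 4.52 and 1.78 UMIs per barcode. The thinned ratio of Glul was 0.393 and that of Oat 0.504, which is no longer a 2-fold difference. The share of barcodes with at least 5 Glul UMIs before thinning was 4.63% (3.18 to 6.69%) in control 2 and 2.08% (1.22 to 3.52%) in HFHC 3. Other classes carried single Glul UMIs as well, as in 17.6% (10.4 to 28.4%) of the T or NK-like barcodes of HFHC 3 at a median of 2425 UMIs. A barcode with any Glul UMI was therefore not read as a Glul-expressing hepatocyte.

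Some pericentral genes that are no members were lower in HFHC 3 as well, and others were higher. Of the 15 listed, 6 had at least 40 UMIs, with 2 intervals above 1 and 2 below. The cytochrome P450 genes Cyp2e1 and Cyp2c29 were the lower ones, with 145 and 76.9 CPM in control 2 and 44.3 and 7.17 CPM in HFHC 3, ratios of 0.307 (0.226 to 0.412) and 0.0933 (0.0447 to 0.177). Rgn, or regucalcin, and Aldh3a2, a fatty aldehyde dehydrogenase, were the higher ones, with ratios of 1.17 (1.10 to 1.25) and 1.72 (1.33 to 2.22). These 4 were named after their values were seen. The cluster led by Cyp2c37, Cyp2c29 and Cyp2e1, with Oat among its first 10 genes, held 162 barcodes of control 2 and 5 of HFHC 3. Clusters were made without adjusting for library, and 614 hepatocyte-like barcodes of HFHC 3 lay in the cluster led by Saa2. These numbers therefore do not show how many pericentral barcodes each library holds. Of the 14 periportal genes, 9 had enough UMIs, with 3 intervals above 1 and 4 below.

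Summed over barcodes, Oat was higher in those with a Glul UMI than in those without, in both libraries. In control 2, Oat stood at 1679 CPM in the 84 barcodes with Glul and at 158 CPM in the 478 without, a ratio of 10.6 (8.62 to 13.2). In HFHC 3 it stood at 322 CPM with Glul and at 64.6 CPM without, a ratio of 4.99 (3.73 to 6.74). After thinning, these ratios were 16.6 and 12.8. Sds, a portal-side enzyme, did the opposite, with ratios of 0.356 (0.267 to 0.468) in control 2 and 0.556 (0.476 to 0.646) in HFHC 3. Barcodes with Glul were deeper, at medians of 1884 against 1122 UMIs in control 2 and 2276 against 1912 UMIs in HFHC 3.

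To place all members on the lobule, barcodes of each library were divided into low, middle and high sets by the UMI share of pericentral genes that are no members, a division chosen after seeing the data. Control 2 gave 276, 99 and 187 barcodes, the low set being those with no such UMI, and HFHC 3 gave 209, 208 and 209. In control 2, Glul had 45.0 CPM in the low set and 2188 CPM in the high set, a ratio of 48.6 (30.2 to 83.8). Oat had 23.8 and 1218 CPM, a ratio of 51.1 (26.7 to 112). Intervals lay above 1 for 4 members (Glul, Oat, Hpd and Ahcy), below for 18 and included 1 for 9. Among the 2093 genes with at least 40 UMIs in these sets, the dividing genes left out, 11.4% lay above 1 and 13.4% below, and of the 25 members among them 4 lay above and 17 below. The lowest ratios were those of Sds, a serine dehydratase with 1208 CPM in the low set and 69.9 CPM in the high set (ratio 0.0578), and of its relative Sdsl (0.0676). Hal (0.173), Gls2 (0.174), Gldc (0.248) and Pck1 (0.274) followed, and Ass1 had 9474 and 3608 CPM (0.381, 0.357 to 0.406). With Rgn left out of the pericentral genes the ratios were 27.2 for Glul, 20.8 for Oat and 0.223 for Sds, in the same directions. The interval of Ahcy then included 1 (1.20, 0.963 to 1.48), as did that of Bhmt (0.970, 0.905 to 1.04), which had been below. With thinned barcodes those of Ahcy, Bhmt, Sdsl and Gldc included 1.

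In HFHC 3 the ratios of Glul, Oat and Sds were nearer to 1, over sets that differ from those of control 2. The low set reached up to 1.25 pericentral UMIs per 1000 and held 570 CPM of these genes, against none in control 2, and the high set began at 2.56 per 1000, against 1.85 in control 2. Glul stood at 85.0 CPM in the low set and 474 CPM in the high set, a ratio of 5.57 (4.03 to 7.87), and Oat at 38.7 and 338 CPM, a ratio of 8.74 (5.48 to 14.7). Sds had a ratio of 0.439 (0.374 to 0.515), which became 0.780 (0.546 to 1.10) with thinned barcodes, and Pck1 of 0.754 (0.661 to 0.860). Intervals lay above 1 for 6 members, below for 6 and included 1 for 19. Among 2782 genes with at least 40 UMIs in these sets 5.43% lay above 1 and 6.76% below, and of the 29 members among them 6 lay above and 6 below. These counts moved with the dividing genes: without Rgn, 2 members (Glul and Oat) lay above 1 and 18 below. With the limits of control 2, which leave 59 barcodes in the low set and 318 in the high set, 6 lay above and 4 below, and Glul had a ratio of 5.02 (2.28 to 13.8). In both libraries, Glul, Oat and Hpd had intervals above 1, and Sds, Sdsl, Hal, Ftcd, Pck1 and Arg1 had intervals below 1. The share of all genes that repeat a direction in this way is not given here. In HFHC 3, Hpd went to 0.902 (0.835 to 0.973) without Rgn, and with thinned barcodes the intervals of Hal, Ftcd, Sds, Sdsl and Pck1 included 1. Gls2 had 271 CPM in the low set and 257 CPM in the high set of HFHC 3 (ratio 0.949, 0.742 to 1.21). It did not repeat its gradient of control 2 in these sets. In both libraries the order of the sets rests mostly on Rgn. Rgn had 2836 UMIs in HFHC 3, and Aldh3a2, the next of the dividing genes, had 232. In control 2 Rgn had 1540 UMIs, and Cyp2e1, the next there, had 141. Of 14 periportal genes that are no members, 6 were lower in the high set in control 2 and 3 in HFHC 3, and none was higher. Whether the gradients differ by diet was not tested, since each library was 1 mouse.

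**Figure D2:**
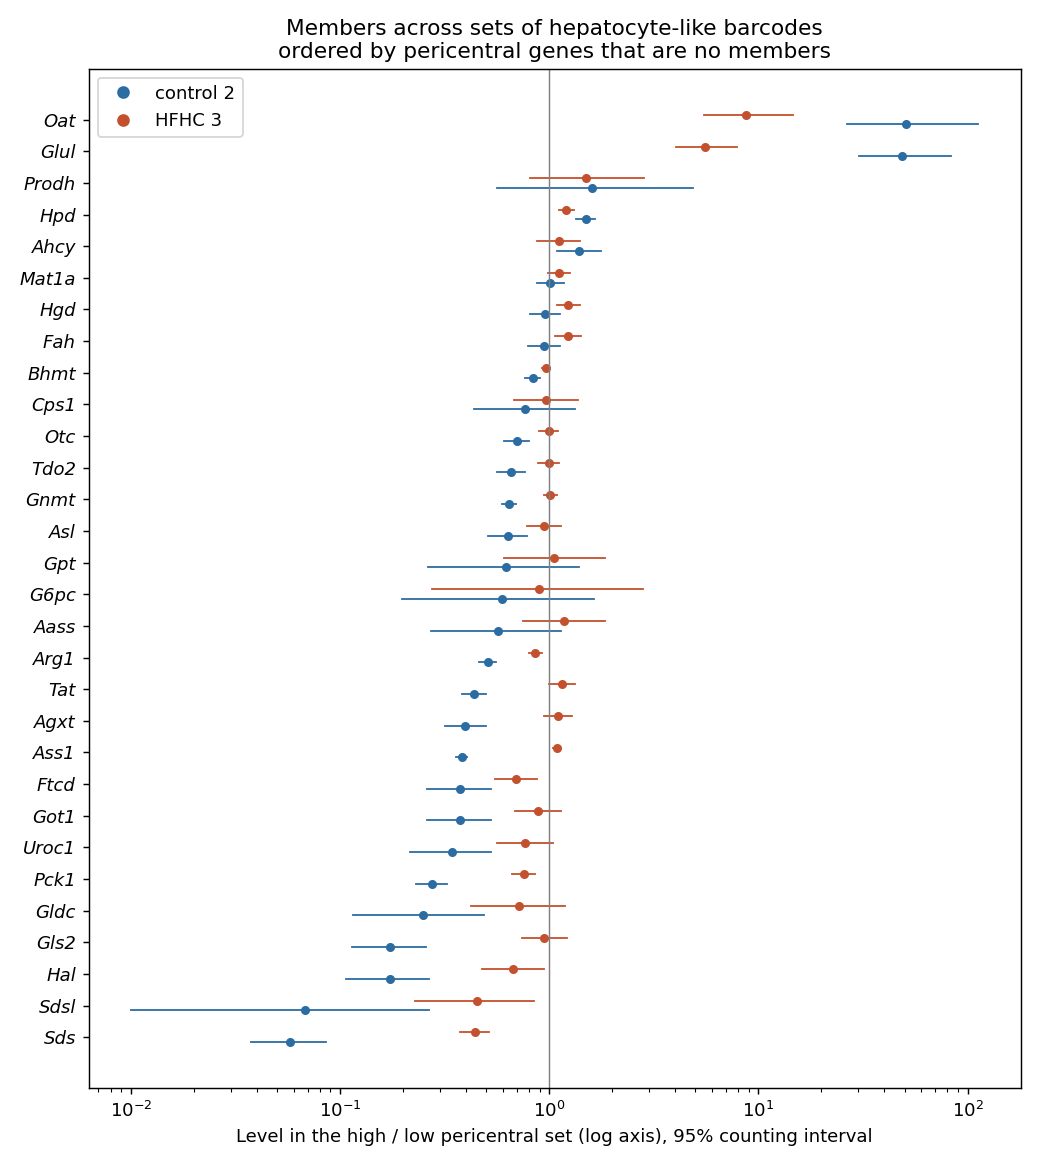
Ratio of each member's level in the high pericentral set of hepatocyte-like barcodes to that in the low set (log axis), with exact 95% counting intervals, in control 2 (blue) and HFHC 3 (orange); Gatm, with 2 UMIs in all, is left out and the line marks 1. Glul and Oat lie far to the right in both libraries, and Sds and Sdsl to the left, with points of HFHC 3 nearer to 1; the sets have other limits in each library.

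Ass1 was the one member whose interval lay on opposite sides of 1. In HFHC 3 its ratio was 1.09 (1.05 to 1.14), against 0.381 in control 2. Without Rgn, the most abundant of the pericentral genes used, the ratio was 0.748 (0.717 to 0.780) in HFHC 3 and 0.466 in control 2. With thinned barcodes the ratio in HFHC 3 was 0.939 (0.852 to 1.03). Barcodes with and without Glul, a division that does not use Rgn, gave 0.525 in control 2 and 0.794 (0.764 to 0.826) in HFHC 3.

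Outside hepatocyte-like barcodes, Gatm alone held 998 of the 1435 member UMIs in control 3 and 581 of the 1237 in HFHC 4. With an erythroid-like cluster set aside, most of the 31 members, however, never exceeded the level that hepatocyte RNA in the droplets would give. This free RNA level was set by the 16 hepatocyte markers in each class and library. It was scaled to hepatocyte-like barcodes of the same library, or of control 2 or HFHC 3 where a library had too few. In HFHC 1 and HFHC 2 the markers took 0.284% and 0.418% of UMIs, and the members 0.0516% and 0.0416%. In the hepatocyte-like barcodes of HFHC 3, which set their level, the markers took 2.03% and the members 3.57%. The borrowed level is thus high there for the members as a whole, and staying below it says little. Over 26 sets of a class in a library, 13 of the 31 members never exceeded the free RNA level with at least 5 UMIs and an interval above it. The share of all genes under this rule is not given here, so the count is not read as particular to the members. The 13 were Cps1, Bhmt, Uroc1, Ftcd, Sds, Gldc, Hgd, Tdo2, Gls2, Prodh, Gpt, Pck1 and G6pc. Of the others, Otc, Arg1, Mat1a, Gnmt, Ahcy, Agxt and Tat exceeded the level only in the erythroid-like cluster, which lay in control 2. Its 105 barcodes carried 5 erythroid and 5 hepatocyte markers, and Ass1 reached 5996 CPM there, so it was not read as another source. Ass1 exceeded the level also in B or plasma-like barcodes of control 2, and Asl did so in 6 sets. Fah and Hpd did so in lymphatic endothelial-like barcodes of control 4 alone, with 6 and 5 UMIs. For Hpd this level was scaled to control 2, at 1966 CPM. The 4 hepatocyte-like barcodes of control 4 itself had 6022 CPM (4145 to 8457) of Hpd, so the level used there may be too low.

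Gatm, the first enzyme of creatine synthesis, was nearly absent from hepatocyte-like barcodes and present in endothelium. It had 2 UMIs in the hepatocyte-like barcodes of control 2 (2.05 CPM, 0.248 to 7.41) and 0 in HFHC 3, which allows up to 1.96 CPM. Barcodes resembling liver sinusoidal endothelial cells (LSEC-like) had 687 CPM (545 to 855) in control 2, 1276 CPM (1197 to 1358) in control 3, 1042 CPM (827 to 1295) in control 4 and 617 CPM (566 to 671) in HFHC 4. The HFHC library was the lowest of the 4, and its interval overlapped that of control 2. Different clusters held the class in these libraries. One led by Esm1 and Cxcl9 held 371 of the 514 barcodes of HFHC 4 and 210 of the 543 of control 3, and one led by Wnt2 and Cyp26b1 held 34 of the 52 of control 2 and 31 of the 38 of control 4. In the first, Gatm had 518 CPM in control 2 (290 to 855), 1009 CPM in control 3 (901 to 1125) and 546 CPM in HFHC 4 (493 to 602). In the other it had 774, 1392 and 889 CPM in controls 2, 3 and 4 and 790 CPM (537 to 1122) in HFHC 4. Within clusters HFHC 4 thus lay below control 3 but not below control 2. Gamt, which completes creatine synthesis, had 570 and 868 CPM in the hepatocyte-like barcodes of control 2 and HFHC 3. Vascular endothelial-like barcodes had less Gatm, at 131 CPM in control 2 and 149 CPM in HFHC 4, so the sinusoidal level was 5.24 times (2.99 to 9.79) and 4.14 times (2.71 to 6.66) higher. Kupffer-like barcodes of HFHC 1 and HFHC 2 had 92.2 and 94.6 CPM, and monocyte or macrophage-like barcodes of HFHC 3 had 73.0 CPM.

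Aass, the first enzyme of lysine breakdown, also stood above the free RNA level in LSEC-like barcodes. It had 103 CPM (53.3 to 180) in control 2, 270 CPM (235 to 310) in control 3, 141 CPM (70.6 to 253) in control 4 and 367 CPM (328 to 410) in HFHC 4. In the hepatocyte-like barcodes of control 2 and HFHC 3 it had 50.2 and 84.1 CPM. HFHC 4 was the highest of the 4 LSEC-like sets, and its interval did not overlap those of the controls. Within the cluster led by Esm1 and Cxcl9 it had 357 CPM (314 to 403), against 273 CPM (219 to 337) in control 3 and 69.1 CPM (8.37 to 249.7) in control 2. Within the one led by Wnt2 it had 408 CPM (233 to 662), against 111, 257 and 159 CPM in controls 2, 3 and 4. HFHC 4 was again the highest in each, but its intervals overlapped those of control 3, and that of control 4 in the cluster led by Wnt2. Vascular endothelial-like barcodes of HFHC 4 held 3 Aass UMIs, and the sinusoidal level there was 18.1 times (6.14 to 88.2) higher.

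Glul exceeded the free RNA level in 17 of the 26 sets, and among endothelial cells it was higher in vessels than in sinusoids. LSEC-like barcodes had 163, 155, 90.0 and 162 CPM in control 2, control 3, control 4 and HFHC 4. Vascular endothelial-like barcodes had 639 CPM in control 2, 373 CPM in control 3 and 325 CPM in HFHC 4, with ratios to the sinusoidal level of 3.91 (2.34 to 6.87), 2.41 (1.08 to 4.73) and 2.01 (1.41 to 2.80). Oat exceeded the level in 10 sets and was highest in mesothelial-like barcodes, at 346 CPM (230 to 500) in control 1 and 338 CPM (228 to 483) in HFHC 1. Hal was above it there too, with 6 UMIs in each library (74.2 and 67.6 CPM). Sdsl was above it in cholangiocyte-like barcodes, with 7 UMIs in HFHC 1 (62.4 CPM) and 19 in HFHC 2 (86.6 CPM). Got1 exceeded it in 6 sets, among them 3 of the 4 LSEC-like ones.

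**Figure D3:**
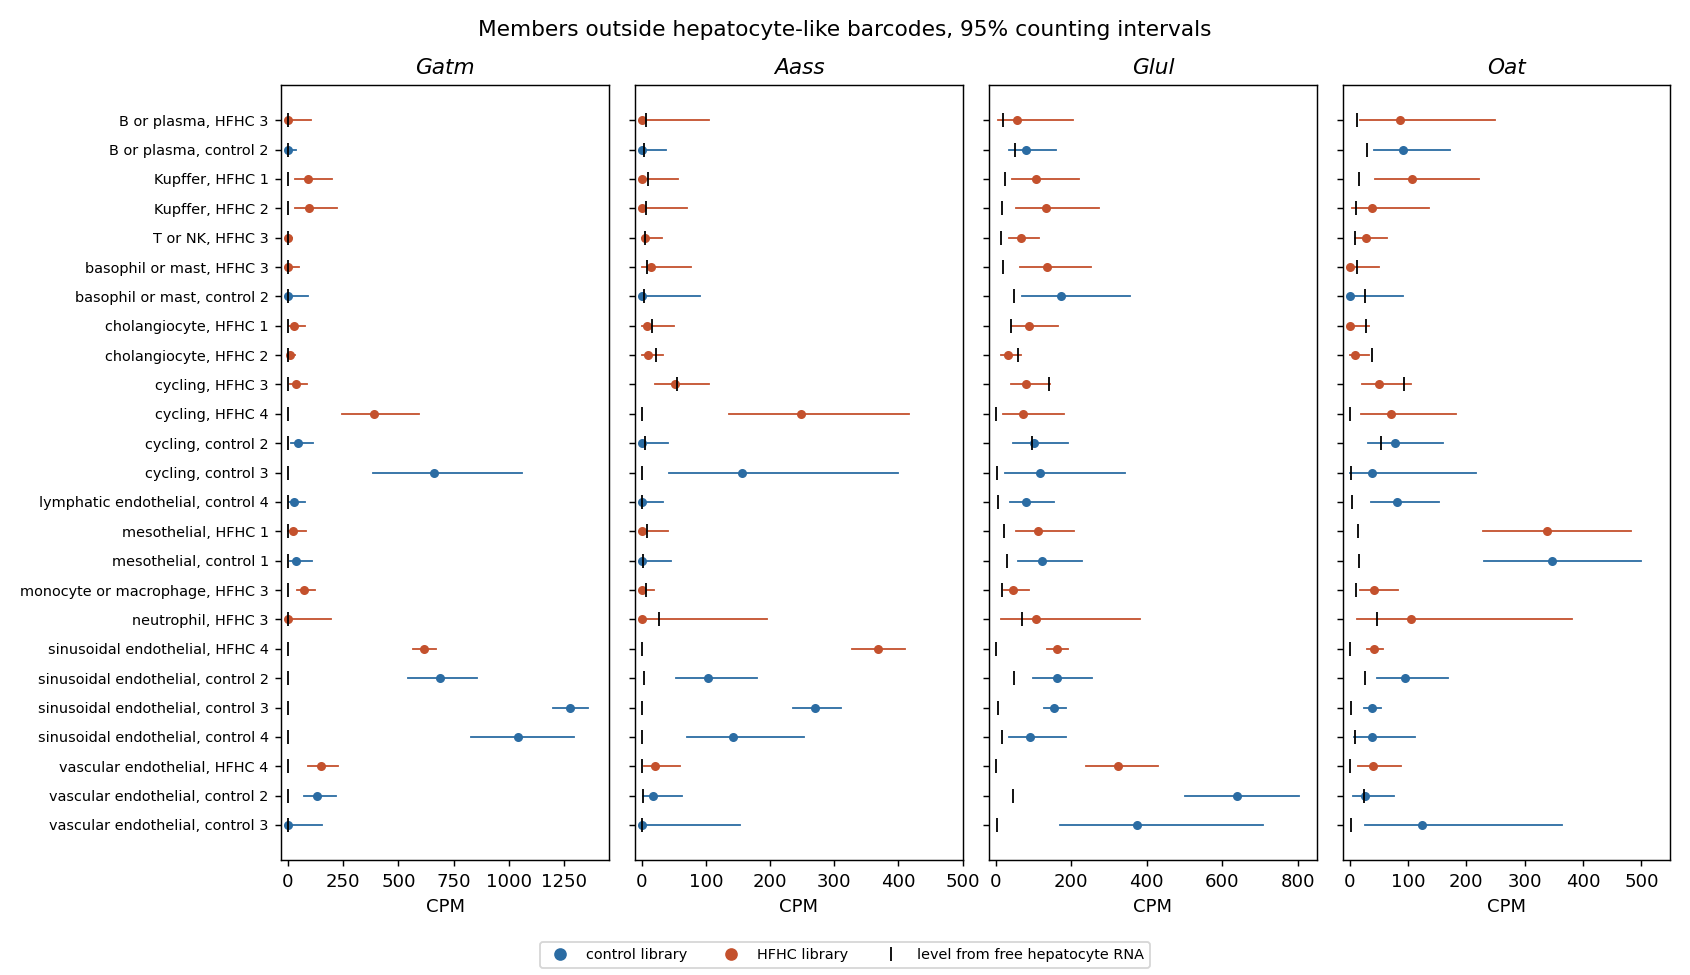
Level of Gatm, Aass, Glul and Oat (CPM, linear axes) in each class and library with at least 10 barcodes, with exact 95% counting intervals; blue points are control and orange points HFHC libraries, black ticks mark the level from free hepatocyte RNA, and the erythroid-like cluster is left out. Gatm and Aass are high in sinusoidal endothelial rows, Glul in vascular endothelial rows and Oat in mesothelial rows.

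Across all 8 mice, diet was compared on the sum of all barcodes of each library. Hepatocyte-like barcodes made up 64.2% of control 2 and 73.0% of HFHC 3 and at most 4.26% of any other library. Ass1 had 17.6, 4325, 8.37 and 66.1 CPM in controls 1 to 4, and 16.4, 6.30, 6027 and 15.8 CPM in HFHC 1 to 4. Control 2 and HFHC 3 were high in their groups and the ranges overlapped. Fewer hepatocytes and less RNA in each cannot be told apart in such sums. EdgeR's quasi-likelihood test called none of 6666 genes at a Benjamini-Hochberg adjusted p of 0.05 (0%), with 54 at an unadjusted p under that level, and DESeq2 also called none. Among the members, 11 could be tested and none was called.

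Glul had 135, 563, 159 and 81.6 CPM in controls 1 to 4 and 98.7, 56.7, 171 and 180 CPM in HFHC 1 to 4. The groups overlapped, and the log2 difference of HFHC from control was -0.97 (SE 0.78, edgeR adjusted p = 0.999, n = 4 and 4). It was 0.29 without control 2, the library high in Glul, and that of Oat went from -0.82 (SE 0.77) to 0.14. Gatm had 205, 63.6, 1194 and 330 CPM in the controls and 72.3, 22.1, 10.4 and 539 CPM in the HFHC libraries, a log2 difference of -1.41 (SE 1.22, edgeR adjusted p = 0.999). Without control 3 it was -0.32, and without HFHC 4 it was -3.58. Gatm was highest in control 3 and HFHC 4, the libraries with 543 and 514 LSEC-like barcodes.

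**Figure D4:**
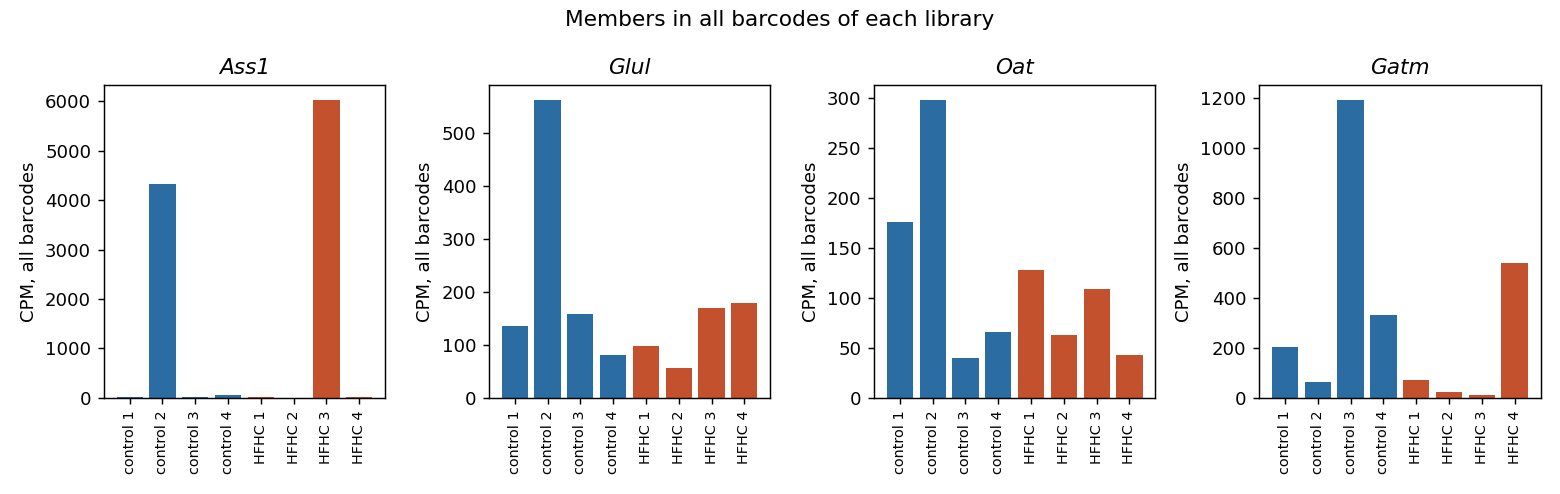
CPM of Ass1, Glul, Oat and Gatm in all barcodes of each library (bars from 0, blue control, orange HFHC, 1 mouse per bar). Ass1 is high in control 2 and HFHC 3, the libraries with hepatocyte-like barcodes, and Gatm in control 3 and HFHC 4.

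Outside the hepatocyte-like class, a fit added after seeing the data called none of 6593 genes (0%) with edgeR, at 131 unadjusted p under 0.05, and 1 with DESeq2, which was no member. Glul had a log2 difference of -0.46 (SE 0.43) and Gatm of -1.42 (SE 1.09), both with an edgeR adjusted p of 0.996. In LSEC-like barcodes, HFHC 4 was set against controls 2, 3 and 4 in a further added fit, which assumes that the lone HFHC library varies like the controls and sets 1 mouse against 3. It called 3 of 7226 genes (0.0415%) and none of the 9 members tested, with 1 member, Aass, at an unadjusted p under 0.05, and DESeq2 called 2 genes and no member. With 1 HFHC mouse and unlike clusters, these values say nothing of diet. Aass had a log2 difference of 1.16 (SE 0.45, edgeR adjusted p = 0.898), higher in HFHC 4 than in each of the 3 controls. Without control 3 it was 1.78, with an edgeR adjusted p of 0.170. Gatm had -0.52 (SE 0.42) and Glul 0.37 (SE 0.47), both with an edgeR adjusted p near 1.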

How the data were processed

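The deposited values are raw UMI counts, made by the authors with Cell Ranger 3.0.1 and Seurat on mm10, per the submitters' processing notes. No source used here gives the version of Seurat, the annotation release or the filters on cells. Each barcode shared by libraries was kept where it had most UMIs. Counts were clustered with scanpy 1.11.5 and leidenalg 0.10.2 (normalised to 10000, 2000 variable genes, 30 components, 15 neighbours, resolution 1), and a class needed at least 3 markers with a log2 fold of 1 in 10% of barcodes. Scrublet marked doublets, which stayed in. Kept libraries held 170448 to 2309209 UMIs in 47 to 875 barcodes.

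Levels are UMIs scaled to 1000000 per class and library with exact Poisson 95% intervals, and ratios carry exact conditional intervals. A count of 0 allows up to 3 counts. Intervals cover counting error only. Sums per library went into the robust quasi-likelihood test of edgeR 4.0.16 (filterByExpr, TMM) in R 4.3.3, with DESeq2 1.42.0 as an alternative, and the scripts were tested on simulated data. A planned diet test in hepatocyte-like barcodes was not run, since 1 library per diet had at least 10 such barcodes. All 31 members could be named. Values are given in full for urea cycle genes, members with intervals excluding 1, members above the free RNA level and zonation genes. Genes of other lists were chosen by their counts, except Slc25a15, Csad, Gamt, Cyp2e1, Cyp2c29, Rgn and Aldh3a2, chosen after their values were seen. The members and lists were chosen with earlier results of these data known. Positions are those of the RefSeq promoter table.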

Additional observations from a re-analysis of the deposited data

Results flagged for a closer look

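Some libraries stood far from the others of their diet by an outlier rule (Dixon's Q). The rule was applied only to Ass1, Glul, Oat, Gatm and Aass, members already described above, so no chance rate is given. In all barcodes, Ass1 was at 4325 CPM in control 2 and at 6027 CPM in HFHC 3, the libraries that hold the hepatocyte-like barcodes, and Glul was at 563 CPM in control 2. Gatm was at 539 CPM in HFHC 4, both in all barcodes and outside the hepatocyte-like class, and Aass was at 312 CPM in HFHC 4 outside it. HFHC 4 holds 514 LSEC-like barcodes, and no other HFHC library reached the minimum of 10.

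The level of Ass1 in the high pericentral set relative to the low set was 0.381 in control 2 and 1.09 in HFHC 3, opposite directions in 1 mouse of each diet. The difference was not tested, and the value of HFHC 3 went below 1 without Rgn and after thinning.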

How the results depend on the processing

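No member was at least 2-fold higher in HFHC 3 in the reported ratio. This count was 1 with a class from hepatocyte markers, 1 with clustering without the members, 2 under 5% mitochondrial counts (Bhmt and Prodh), 2 with thinned barcodes (Cps1 and Aass, while Prodh and Gpt, also above 2, fell under the minimum with 22 and 27 UMIs) and 11 per UMI of hepatocyte markers, a scaling that raised every ratio by 0.73 on the log2 scale. On that scale 25 intervals lay above 1 and 3 below, and ratios reversed for Asl (1.43), Gnmt (1.31), Ahcy (1.27) and Pck1 (1.23). With thinned barcodes 1 member was at least 2-fold lower, and Otc reversed (0.991). The other counts of members in these ratios stayed within 1.5 times.

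The Oat ratio in barcodes with Glul moved to 16.6 in control 2 and 12.8 in HFHC 3 when thinned, and the pericentral ratio of Ass1 in HFHC 3 reversed without Rgn (0.748) and when thinned (0.939). So did those of Fah (0.924 and 0.998), and without Rgn those of Hgd (0.977) and Hpd (0.902). The cause was not tested.

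For all barcodes summed, 0 genes and 0 members were called under each alternative, leaving out each library included. Same-numbered mice did not all vary together (correlations 0.498, -0.081, -0.416 and 0.162), so numbers were not taken as pairs. The highest correlations joined mice of different numbers, control 2 with HFHC 3 (0.830) and control 3 with HFHC 4 (0.776). The title of HFHC 4 gives an animal number other than that of its description, so the last pair may share none. With a replicate block 0 genes and 0 members were called, 1 of 11 members in place of 6 had a positive log2 difference, their median went from 0.08 to -0.86, and Ass1 reversed (-1.12 in place of 0.53). Without control 2, Glul (0.29) and Oat (0.14) reversed, and over all libraries left out in turn the log2 differences ran from -1.36 to 0.29 for Glul and from -1.19 to 0.14 for Oat. Outside the hepatocyte-like class DESeq2 called 1 gene. In LSEC-like barcodes 6 genes were called with DESeq2 size factors, 8 with no filter and 1 to 13 without 1 control, and 0 members each time. Leaving out HFHC 4 there leaves no HFHC library, and no paired analysis was possible because a single HFHC library remained.

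The diet test in hepatocyte-like barcodes and its alternatives are not reported. Keeping barcode copies gave control 1 its 10 hepatocyte-like barcodes, but 9 of them were copies, which make no further replicate. Depth limits Gatm, with 2 UMIs over both libraries and no ratio, the most, then G6pc with 45 and Prodh with 92.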
